A study of Mus musculus with 9 samples.

Results

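The probes with the lower-case mmu prefix were examined on the microarrays of colonic RNA. They were chosen by their names alone, as the spots that are no control spots and whose probe name starts with mmu in lower case, and they were 4297 of the 166924 probes of the array. Each name has the form mmu_circ, a number of 7 digits, and a pair of further numbers, which is the form of the identifiers of circBase, a public catalogue of circular RNAs. The 4297 probes had 4297 different identifiers and 4297 different sequences of 60 bases, with 1 spot each. The comparison classes were the 151603 probes whose names start with mclstr, the bulk of an array that was designed for mRNAs and long noncoding RNAs as well as circular RNAs, and the 11024 probes named from CIRCpedia, another catalogue of circular RNAs.

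The animals were male C57BL/6J mice of 10 weeks, with 3 samples per group and 1 array for each. The Control mice drank distilled water, and the DSS and DSS+PAMK mice drank 3% dextran sulfate sodium (DSS), a sulfated polysaccharide that injures the epithelium of the colon, over 7 days. Gavage followed from day 8 until day 14, in which the Control and DSS mice received 1 ml of saline per 100 g and the DSS+PAMK mice 200 mg/kg of PAMK, a polysaccharide from the rhizome of Atractylodes macrocephala Koidz. The RNA came from whole colonic tissue, so that a smaller number of cells of a type and less RNA per cell cannot be told apart.

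A circular RNA is formed when the end of an exon is spliced back to the start of an exon that lies upstream of it or to its own start, which closes the RNA into a ring. The ring has no free end and no poly(A) tail, it escapes most exonucleases and it is long lived, so that such RNAs accumulate in tissues that divide slowly. The back-splice junction is commonly the only stretch of sequence that a circular RNA does not share with the linear mRNA of the same gene, and a probe for a circular RNA is therefore laid across it. The parts on either side of the junction also occur in the linear transcript. The labels describe cRNA made from total RNA with a low input labeling kit and name no step that removes linear RNA, and how much linear RNA bound to these probes was not tested.

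The place of the junction was read from the names and the sequences together. In the probe names, the second number from the end (0 to 16) was read as the position of a 60-base window, and the junction was placed after the base that is 45 minus this number. Of 368 stretches of at least 20 bases that a probe shared with an mclstr probe and that broke off inside both, 246 (66.8%) broke off at exactly this base. Of 291 such stretches that ran into the 3′ part, 104 (35.7%) began right after it, 89 began 1 base earlier and 64 began 2 bases earlier. The number 45 was taken from the ends of such stretches, so these shares describe the placement and do not test it. The dinucleotide AG, with which exons commonly end, stood before the junction in 53.6% of the probes, against 8.02% of all other positions in them. A G, with which exons commonly begin, stood after it in 45.4%, against 23.2% elsewhere. The 5′ part was thus 29 to 45 bases long and the 3′ part 15 to 31 bases.

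The probes that the comparisons below turn on are shown first, 5′ to 3′, with the 5′ part in lower case and the 3′ part in capitals. The change of case marks the back-splice junction as placed above. The files list these probes as unmapped, no genome was used here, and their genes and positions are not analysed here. These probes were called higher with DSS than in Control mice, and the first pair carry consecutive identifiers.
mmu_circ_0011747: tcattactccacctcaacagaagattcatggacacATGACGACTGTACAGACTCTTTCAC
mmu_circ_0011748: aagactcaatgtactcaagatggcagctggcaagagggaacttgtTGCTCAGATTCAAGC
mmu_circ_0012903: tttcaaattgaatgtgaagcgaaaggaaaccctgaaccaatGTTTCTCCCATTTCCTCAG

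The next probes were called one way with DSS and the other way with PAMK.
mmu_circ_0008940: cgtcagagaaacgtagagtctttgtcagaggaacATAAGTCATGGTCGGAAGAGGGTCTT
mmu_circ_0009970: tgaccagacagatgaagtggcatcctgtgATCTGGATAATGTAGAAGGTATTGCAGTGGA

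This probe had the smallest p of the mmu probes in the DSS vs Control comparison and was lower in DSS mice.
mmu_circ_0012682: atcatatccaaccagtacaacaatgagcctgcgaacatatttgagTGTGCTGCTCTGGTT

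These probes were called in the DSS+PAMK vs DSS comparison, the first pair as higher and the others as lower in DSS+PAMK mice.
mmu_circ_0006351: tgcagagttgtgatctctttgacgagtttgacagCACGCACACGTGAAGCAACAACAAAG
mmu_circ_0009328: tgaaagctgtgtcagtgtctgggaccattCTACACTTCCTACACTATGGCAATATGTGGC
mmu_circ_0004698: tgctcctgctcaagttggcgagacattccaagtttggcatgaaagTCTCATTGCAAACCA
mmu_circ_0012906: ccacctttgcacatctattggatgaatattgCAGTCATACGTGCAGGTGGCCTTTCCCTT
mmu_circ_0015222: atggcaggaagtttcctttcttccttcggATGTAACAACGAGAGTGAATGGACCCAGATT

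This probe was called higher in both the DSS and the DSS+PAMK groups than in Control mice.
mmu_circ_0014687: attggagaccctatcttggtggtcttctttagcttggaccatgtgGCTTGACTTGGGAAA

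These are among the brightest of the probes on all arrays and were not called in any comparison.
mmu_circ_0002060: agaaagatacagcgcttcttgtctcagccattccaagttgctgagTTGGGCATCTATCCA
mmu_circ_0003064: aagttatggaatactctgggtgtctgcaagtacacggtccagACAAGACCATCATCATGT

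The state of the tissue is given as background for every comparison. The supplementary sheets of the study, which list probes chosen on these samples, link array probes to 3 of 10 markers of colonic epithelium, 2 of 6 of leukocytes, 3 of 6 of exocrine pancreas and 0 of 6 of smooth muscle. All 3 epithelial markers were well above background on all arrays, and Slc26a3, a chloride exchanger of colonocytes, had normalized log2 intensities between 12.43 and 13.71. Their summed intensity was 28167 to 38042 in Control mice, 14151 to 15357 in DSS mice and 25441 to 38561 in DSS+PAMK mice. The summed intensity of the leukocyte markers Itgam and Ccr2 was 69.3 to 74.0, 329 to 490 and 164 to 313 in the same order. The pancreatic genes Clps, Pnliprp1 and Pnliprp2 summed to 20068 to 25931 in Control mice, 2322 to 2959 in DSS mice and 3245 to 9770 in DSS+PAMK mice, and Pnliprp1 was well above background on 0 of the 3 DSS arrays. Of the epithelial genes, Fcgbp had 14.25 to 14.50 in Control mice and 12.57 to 12.93 in DSS mice without overlap, whereas the Control and DSS values of Aoc1 and Slc26a3 overlapped. Slc26a3 was higher on all DSS+PAMK arrays, at 13.68 to 13.71, than on the Control arrays. The leukocyte and pancreatic probes did not overlap between Control and DSS. The part of these markers in the differences of the circular RNA probes was not tested. Slide 1 carried all Control arrays with the first DSS replicate. Slide 2 carried the other DSS arrays with DSS+PAMK replicates 1 and 2, and slide 3 the remaining DSS+PAMK array.

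Most of the mmu probes gave a signal in the colon. A probe counted as detected on an array when the scanner software marked it as well above background. The share of mmu probes detected was 87.2% ± 1.87 (SD, n = 3) in Control mice, 83.8% ± 4.03 in DSS mice and 82.7% ± 3.99 in DSS+PAMK mice. The mclstr probes were detected in 64.2% ± 4.68, 58.7% ± 4.96 and 55.7% ± 7.30 of cases, and the mmu share was the higher on each of the 9 arrays. The CIRCpedia probes were detected in 89.6% ± 1.71, 87.1% ± 3.81 and 86.3% ± 3.42, so that a high share was not particular to the mmu probes. Among single arrays the mmu share was lowest on DSS replicate 1, with 79.3%, and highest on Control replicate 1, with 89.3%. The DSS replicate 1 array also had the lowest median processed intensity of the mmu probes, 53.1, against 65.4 to 87.0 on the other arrays.

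Detection was mostly all or none. Of the 4297 mmu probes, 3178 (74.0%) were detected on all 9 arrays, 285 (6.63%) on none, and 834 (19.4%) on some. The corresponding shares of the mclstr probes were 42.6%, 21.3% and 36.1%, and those of the CIRCpedia probes 78.6%, 4.87% and 16.6%. A probe entered the tests if it was detected on all arrays of at least 1 group, which 3608 mmu probes (84.0%) and 57.0% of the mclstr probes did. Of these 3608, 229 passed in a single group, 181 of them in Control mice, 23 in DSS mice and 25 in DSS+PAMK mice. Control mice also led over all 99616 tested probes. There 12813 passed in a single group, 9913 of them in Control mice, 1791 in DSS mice and 1109 in DSS+PAMK mice. A probe that passed in a single group is high there by the choice, so these counts are a description.

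The level of the mmu probes, as the normalized log2 intensity, hardly moved between the groups. The median over the probes was 6.17 ± 0.0188 (SD, n = 3) in Control mice, 6.14 ± 0.126 in DSS mice and 6.21 ± 0.0563 in DSS+PAMK mice. The median of the mclstr probes was 4.06, 4.05 and 4.05. Quantile normalization gives all arrays the same distribution over all probes, so these medians show the place of the class within an array and no change in total signal. Over the means of the 9 arrays, a lower quartile of 4.33, a median of 6.16 and an upper quartile of 7.88 were found for the mmu probes, against 2.44, 3.96 and 6.26 for the mclstr probes. For the CIRCpedia probes they were 4.70, 6.44 and 8.06. At the bright end the classes met, with a 95th percentile of 10.68 for mmu probes and 10.95 for mclstr probes. The mmu probes had 40% to 46.7% G and C, as did the mclstr probes. Among probes under 45% the median level was 5.61 for mmu and 3.17 for mclstr probes, and from 45% it was 6.40 and 4.34.

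The brightest probe, mmu_circ_0002060, had 16.90, 16.92 and 17.11 in Control mice, 17.07, 16.91 and 16.93 in DSS mice, and 16.98, 16.94 and 16.97 in DSS+PAMK mice. The next, mmu_circ_0003064, lay between 16.55 and 16.74 and mmu_circ_0001777 between 16.35 and 16.76 on the 9 arrays. The 3 groups overlapped for each of them. The 10 brightest probes had mean levels of 14.0 to 17.0, and 0 of the 10 were called in any comparison.

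The level followed where the junction lay in the probe. Probes with 45 bases on the 5′ side and 15 on the 3′ side (855 probes) had a median level of 7.21 and were detected in 88.2% of cases. Probes with 29 bases on the 5′ side and 31 on the 3′ side (900 probes) had a median of 5.20 and were detected in 78.2% of cases. Between them the medians were 5.79 at 30 bases, 5.97 at 35, 6.93 at 40 and 6.72 at 44. The median share of G and C in the 5′ part was 44.8% at 29 bases and 44.4% at 45. In the 3′ part of the same probes it was 45.2% and 40%. The difference between the longest and the shortest 5′ part was 1.84 to 2.09 on each of the 9 arrays. Across the 4297 probes, which share arrays and partly exons, Pearson's r between 5′ length and level was 0.218 and Spearman's rho was 0.233. The CIRCpedia probes, which were named and split in the same way, had medians of 7.33 at 45 bases and 5.42 at 29.

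The same was seen for probes of the same junction. For 210 mmu probes the array also held a CIRCpedia probe across the same junction with another split between the sides. The probe with the longer 5′ part was the brighter in 170 of the 210 pairs (81.0%), by a median of 0.34 on the log2 scale. In 80 pairs whose 5′ parts differed by 1 to 4 bases the median excess was 0.09 (57 of 80), in 65 pairs with 5 to 9 bases it was 0.50 (53 of 65), and in 65 pairs with 10 or more bases it was 0.77 (60 of 65). The longer probe was the brighter in 144 of the 178 pairs in which it was the mmu probe and in 26 of the 32 in which it was the CIRCpedia probe. The cause was not tested.

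The DSS vs Control comparison asked which circular RNA probes differ in the inflamed colon. A probe was called, as in the methods, when its groups differed by 2-fold or more with p no higher than 0.05 before adjustment, here from limma fitted to all 99616 tested probes. The DSS group was called higher for 16 of the 3608 mmu probes and lower for 16. Over all tested probes 1.98% were called higher and 1.08% lower, 3.06% in all, against 0.887% of the mmu probes and 3.37% of the mclstr probes. The share among the CIRCpedia probes was 1.05%, near that of the mmu probes. With each array shifted to its own 75th percentile in place of quantile normalization, which moves the median of all tested probes by -0.11, the split was 6 higher and 52 lower. With slide as a block, and within slide 1, where DSS replicate 1 alone stands against the Control arrays, it was 26 and 152. Adjusted by Benjamini-Hochberg across all probes in the test, 0 mmu probes passed 0.05, with a smallest adjusted p of 0.0624, beside 175 (0.176%) of all tested probes. This count depended on the processing, with 11 higher and 16 lower under normexp background correction, 3 and 1 with detection required on all 9 arrays, and 0 and 8 with slide as a block. By p alone, unadjusted, 410 mmu probes (11.4%) passed 0.05, against 13.2% of all tested probes. By fold alone 43 (1.19%) passed 2-fold, against 4.07%. The groups did not overlap for 696 mmu probes (19.3%), near the 18.7% over all tested probes. The median log2 difference was -0.03 over the mmu probes and -0.04 over all tested probes. The median size of the difference was 0.20 for mmu and 0.26 for mclstr probes, and the median within-group SD was 0.23 and 0.34.

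The calls came mostly from dim probes. Of the 32 called, 27 had a mean log2 level under 6, 13 of them under 4, and 5 lay at 6 or above. Among tested mmu probes with a level of 2 to 4, 6.44% were called, against 1.21% at 4 to 6 and 0.324% at 6 to 8. In the lowest of these ranges 202 of 682 probes were tested, and a probe can pass there only through the group where it is high. The part of such probes in that rate was not tested, so the rate is a description. With detection required on all 9 arrays 9 probes were called higher and 4 lower. Within the groups the median SD was 0.51, 0.36 and 0.20 in these ranges.

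Of the probes higher in DSS mice, the pair mmu_circ_0011747 and mmu_circ_0011748 share no stretch of 20 bases. The level of mmu_circ_0011748 was 5.41, 4.86 and 4.79 in Control mice, 6.14, 7.27 and 6.67 in DSS mice, and 5.29, 5.98 and 5.68 in DSS+PAMK mice. All 3 DSS values lay above all others, and the DSS+PAMK values overlapped those of the Control group. The DSS minus Control difference was 1.67 ± 0.315 (SE; limma, unadjusted p = 0.000595, adjusted p = 0.0923). Its neighbour mmu_circ_0011747 had 3.71, 2.68 and 3.57 in Control mice, 4.71, 5.42 and 4.76 in DSS mice, and 4.13, 4.45 and 3.63 in DSS+PAMK mice. Again the DSS values stood above the rest, with a difference of 1.65 ± 0.338 from the Control group (adjusted p = 0.113). It was detected on 2 of the 3 Control arrays.

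The largest difference among the higher probes was that of mmu_circ_0000745. Its level was 5.54, 6.05 and 5.63 in Control mice, 7.48, 8.16 and 7.09 in DSS mice, and 6.92, 7.26 and 6.39 in DSS+PAMK mice. Neither the DSS nor the DSS+PAMK values overlapped those of the Control group, and the differences were 1.84 ± 0.319 (adjusted p = 0.0767) and 1.11 ± 0.319 (adjusted p = 0.258). The second was 0.91 without DSS+PAMK replicate 2, which ended that call. In mmu_circ_0012903 the Control values were 3.60, 4.55 and 4.27, the DSS values 5.39, 5.45 and 5.23, and the DSS+PAMK values 4.61, 4.21 and 4.48. The DSS group stood apart from both others, by 1.22 ± 0.243 from the Control group (adjusted p = 0.106). Its value was 0.95 without Control replicate 1, which ended the call. The probe mmu_circ_0013305 rested on signals near background, with 2.87, 3.08 and 2.51 in Control mice, 4.26, 4.26 and 4.17 in DSS mice, and 4.67, 3.81 and 3.38 in DSS+PAMK mice. The DSS values lay above all Control values (adjusted p = 0.126), and since the Control level lay mostly at background no size of the difference is given. It was detected on 1 Control array, 3 DSS arrays and 2 DSS+PAMK arrays. It thus entered the test through the DSS group alone, where it is high, so these values are a description.

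Of the probes lower in DSS mice, mmu_circ_0012682 had the smallest p of the class. Its level was 7.85, 8.56 and 8.02 in Control mice, 6.71, 6.73 and 6.99 in DSS mice, and 7.93, 7.59 and 7.90 in DSS+PAMK mice. The DSS values lay below all others, the Control and DSS+PAMK values overlapped, and the DSS minus Control difference was -1.34 ± 0.210 (unadjusted p = 0.000167, adjusted p = 0.0624). The preceding identifier, mmu_circ_0012681, had 6.13, 6.43 and 5.74, then 4.92, 4.42 and 5.45, then 5.85, 5.80 and 5.92 in the same order of groups. Its DSS values again lay below all others, and its difference from the Control group was -1.17 ± 0.273 (adjusted p = 0.146). Without DSS replicate 2 it was -0.91, which ended the call.

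The largest decrease called in this comparison was that of mmu_circ_0011218. Its level was 9.44, 9.16 and 9.51 in Control mice, 6.88, 7.42 and 7.82 in DSS mice, and 8.84, 6.83 and 8.22 in DSS+PAMK mice. All DSS and all DSS+PAMK values lay below those of the Control group, and the DSS+PAMK values spread over 2.01 on the log2 scale. The differences from the Control group were -1.99 ± 0.468 (adjusted p = 0.147) for DSS and -1.41 ± 0.468 (adjusted p = 0.295) for DSS+PAMK. The latter was -0.84 without DSS+PAMK replicate 2, which ended that call.

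In 5 of the named lower probes the call leaned on DSS replicate 1, the array with the lowest signal. These were mmu_circ_0008775, mmu_circ_0008918, mmu_circ_0014413, mmu_circ_0011848 and mmu_circ_0015313, with levels of 1.19, 1.18, 1.23, 1.24 and 1.54 on that array. On the other DSS arrays they had between 2.50 and 3.72. The first was detected on 0 and each of the others on 1 of the 3 DSS arrays, so that their DSS levels lay mostly at background. Since the 5 did not enter the test through the DSS group, their values are a description. For mmu_circ_0008775 the Control mean lay 1.48-fold above the mean of the lowest signals detected on the DSS arrays (adjusted p = 0.308). This bound leaves out the spread between arrays. Without DSS replicate 1, 0 of these calls held. Each of the 5 also lost the call, through its p, without Control replicate 1, and mmu_circ_0011848 and mmu_circ_0015313 lost it without 6 of the 9 arrays. The DSS+PAMK vs DSS calls of mmu_circ_0008775 and mmu_circ_0008918 were also lost without DSS replicate 1. The probe mmu_circ_0011857 also turned on single arrays, with DSS levels of 6.07, 4.52 and 4.99 against 6.37, 6.30 and 6.29 in Control mice. Its difference of -1.12 ± 0.388 was -0.79 without DSS replicate 2, and the call was also lost without DSS replicate 3.

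The DSS+PAMK vs DSS comparison asked which of the probes differ after PAMK treatment of the colitis. It shares the DSS arrays with the comparison above, so that a high or low DSS mean enters both with opposite sign. The DSS+PAMK group was called higher for 7 of the 3608 mmu probes and lower for 10, which is 0.471% of them. Over all tested probes 0.644% were called higher and 1.06% lower, 1.71% in all, over the mclstr probes 1.91% and over the CIRCpedia probes 0.324%. With the 75th percentile shift the split was 6 and 17, and with slide as a block or within slide 2 it was 14 and 16. After adjustment 0 mmu probes and 0 (0%) of all tested probes passed, with a smallest adjusted p of 0.66 among the mmu probes. By limma 194 mmu probes (5.38%) had an unadjusted p under 0.05, against 7.22% of all tested probes, and 30 (0.831%) passed 2-fold, against 2.67%. The methods' t-test called 3 higher and 4 lower. The groups did not overlap for 589 mmu probes (16.3%), near the 16% over all tested probes. The difference was positive for 62.1% of the mmu probes and 53.3% of all tested probes, with medians of 0.07 and 0.02. The CIRCpedia probes were close to the mmu probes, with 61.2% and a median of 0.06. Without DSS replicate 1 the medians were 0.017 for mmu, 0.002 for CIRCpedia and 0.008 for all tested probes.

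The largest difference was that of mmu_circ_0009328, a bright probe with 29 bases on the 5′ side. Its level was 10.33, 13.01 and 10.65 in Control mice, 11.67, 10.13 and 10.21 in DSS mice, and 13.28, 13.70 and 12.98 in DSS+PAMK mice. The DSS+PAMK values lay above all DSS values, and Control replicate 2 exceeded the lowest of them. The difference from the DSS group was 2.65 ± 0.699 (unadjusted p = 0.00473, adjusted p = 0.66). It was 2.38 to 3.15 when each array was left out in turn.

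In mmu_circ_0006351 the spread was small. Its level was 11.86, 12.62 and 12.28 in Control mice, 11.60, 11.32 and 11.21 in DSS mice, and 12.79, 12.31 and 12.48 in DSS+PAMK mice. The DSS values lay below all others, with a DSS+PAMK minus DSS difference of 1.15 ± 0.227 (unadjusted p = 0.000826, adjusted p = 0.66). The DSS minus Control difference of -0.88 ± 0.227 stayed under the fold threshold. In mmu_circ_0015638 the DSS+PAMK values of 6.60, 7.08 and 6.92 stood above the DSS values of 6.41, 4.76 and 5.42 by 1.33 ± 0.480 (adjusted p = 0.67). The Control values of 5.27, 6.86 and 5.94 overlapped both. It lost the call without DSS replicate 2, DSS replicate 3, DSS+PAMK replicate 2 or DSS+PAMK replicate 3, with a lowest value of 0.95.

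Of the probes lower in DSS+PAMK mice, mmu_circ_0012906 had 7.10, 6.41 and 6.12 in Control mice, 7.73, 7.61 and 6.82 in DSS mice, and 6.42, 5.82 and 6.35 in DSS+PAMK mice. The DSS+PAMK values lay below all DSS values, by 1.19 on average, and overlapped those of the Control group (limma difference -1.19 ± 0.329, adjusted p = 0.66). The dim probe mmu_circ_0015222 had 3.66, 3.93 and 3.99, then 3.89, 4.44 and 3.90, then 2.59, 1.98 and 3.15. It was detected on 3 Control, 2 DSS and 0 DSS+PAMK arrays, so that the DSS+PAMK level has only a bound. It entered the test through the Control group alone, so its comparison with that group is a description. Its DSS+PAMK values lay below all others. The Control mean lay 1.18-fold above the bound for the DSS+PAMK level (adjusted p = 0.219), and the adjusted p against the DSS group was 0.66. The call against the Control group was lost without DSS+PAMK replicate 2.

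The probe mmu_circ_0004698 varied widely among the Control samples, with 10.26, 7.11 and 9.93. Its levels were 9.21, 9.26 and 10.61 in DSS mice and 7.36, 7.83 and 7.98 in DSS+PAMK mice. The DSS and DSS+PAMK values did not overlap, by a difference of -1.97 ± 0.773 (adjusted p = 0.677). The call was lost without DSS replicate 3 and without each of the DSS+PAMK replicates. With each of the 9 arrays left out in turn the values were -1.51 to -2.21.

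Calls in opposite directions in the 2 comparisons were found for 6 mmu probes. Higher with DSS and lower again with PAMK were 3 of them, mmu_circ_0008940, mmu_circ_0008941 and mmu_circ_0011748, against 0.398% of all tested probes. Lower with DSS and higher again with PAMK were 3, mmu_circ_0008775, mmu_circ_0008918 and mmu_circ_0009970, against 0.183% of all tested probes. Called in the same direction in both were 0 mmu probes. Since the comparisons share the DSS arrays, the values are given side by side and the pattern carries no test of its own.

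The consecutive identifiers mmu_circ_0008940 and mmu_circ_0008941 gave the same order of arrays within DSS mice. The level of mmu_circ_0008941 was 6.40, 5.80 and 5.94 in Control mice, 7.87, 8.38 and 6.89 in DSS mice, and 6.56, 6.89 and 5.99 in DSS+PAMK mice. The level of mmu_circ_0008940 was 5.11, 4.96 and 4.54, then 6.49, 6.90 and 5.50, then 5.27, 5.87 and 4.71. The DSS values of both lay above those of the Control group, and for mmu_circ_0008940 DSS and DSS+PAMK values overlapped. The DSS minus Control differences were 1.67 ± 0.389 and 1.43 ± 0.400, and the DSS+PAMK minus DSS differences -1.24 ± 0.389 and -1.01 ± 0.400. Within slide 2, where a pair of DSS arrays stood against a pair of DSS+PAMK arrays, the latter were -0.91 and -0.63 and were not called. They were also lost without DSS replicate 2 and DSS+PAMK replicate 3 for both probes, and without DSS replicate 1 and DSS+PAMK replicate 1 for mmu_circ_0008940, with values down to -0.90 and -0.71. For mmu_circ_0011748, the DSS+PAMK minus DSS difference of -1.04 ± 0.315 was lost without DSS replicate 2 or DSS+PAMK replicate 1, with values down to -0.75.

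Of those lower with DSS, mmu_circ_0009970 had 3.32, 3.93 and 3.91 in Control mice, 2.86, 2.72 and 1.56 in DSS mice, and 3.09, 3.63 and 3.56 in DSS+PAMK mice. The DSS values lay below all others, and 0 of the 3 DSS arrays detected the probe. Since it did not enter the test through the DSS group, its values are a description. The Control mean lay 1.22-fold above the mean of the lowest signals detected on the DSS arrays (adjusted p = 0.183). The adjusted p of the DSS+PAMK vs DSS comparison was 0.666. Both calls were lost without DSS replicate 3. The second call was also lost without DSS+PAMK replicate 2 or 3.

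The DSS+PAMK vs Control comparison asked what differs from the healthy colon after treatment. It called 18 mmu probes higher and 6 lower in DSS+PAMK mice, 0.665% of those tested, against 1.65% and 1.02% (2.67% in all) of all tested probes. Of the CIRCpedia probes 0.774% were called. With the 75th percentile shift, which moves the median of all tested probes by -0.10, the split was 4 and 63, and with slide as a block it was 48 and 176. After adjustment 0 mmu probes passed, with a smallest adjusted p of 0.179, as did 0 (0%) of all tested probes. Before adjustment limma gave 370 mmu probes (10.3%) under 0.05, against 13.9% of all tested probes, and 35 (0.970%) passed 2-fold, against 3.78%. The methods' t-test called 9 higher and 6 lower. The groups did not overlap for 792 mmu probes (22.0%), against 24.5% of all tested probes. Since 0 slides hold arrays of both groups, slide and treatment cannot be told apart in this comparison except through the DSS arrays.

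Among the probes called higher was mmu_circ_0014687. Its level was 3.04, 3.79 and 4.17 in Control mice, 4.93, 4.94 and 5.02 in DSS mice, and 5.29, 5.44 and 4.80 in DSS+PAMK mice. All values of both DSS-treated groups lay above those of the Control group, by 1.29 ± 0.289 in DSS mice (adjusted p = 0.132) and 1.51 ± 0.289 in DSS+PAMK mice (adjusted p = 0.199). The first of these was 0.98 without Control replicate 1, which ended the call. In mmu_circ_0005785 the Control values were 3.74, 4.68 and 4.39, the DSS values 4.67, 4.88 and 4.79, and the DSS+PAMK values 5.65, 5.64 and 5.25. The DSS+PAMK group stood above both others, by 1.24 ± 0.245 from the Control group (adjusted p = 0.201) and 0.74 ± 0.245 from the DSS group. Without Control replicate 1 the first was 0.98, which ended the call.

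Probes that were detected on every array of one group and on none of another give only a bound, the bright group's mean against the lowest signals detected on the dim arrays. It leaves out the spread between arrays, and an undetected probe can lie above the lowest detected signal. Such a bound is therefore no guaranteed minimum. In this way 9 mmu probes were detected throughout the Control arrays and on none of the DSS arrays. The share of all probes with such a pattern was not counted, so these counts are a description. Over all probes of the array the share detected was 66.5% in Control, 61.2% in DSS and 58.4% in DSS+PAMK mice. The largest bound among these 9, 1.52-fold lower, was that of mmu_circ_0014307, whose groups overlapped (adjusted p = 0.556). Detected throughout the Control arrays and on none of the DSS+PAMK arrays were 14. Of these, 10 had a bound above 1, up to 1.61-fold lower for mmu_circ_0001417 (adjusted p = 0.290). The reverse held for 2, mmu_circ_0003967 with a bound of 2.28-fold and mmu_circ_0012330 with a bound of 1.94-fold higher, with adjusted p of 0.277 and 0.219. Both had entered the test through the DSS+PAMK group alone, where they are high. Detected throughout the DSS arrays and on none of the DSS+PAMK arrays were 6, with a bound of up to 1.62-fold lower for mmu_circ_0016153. The reverse held for 1, mmu_circ_0007124, with a bound of 1.37-fold higher (adjusted p = 0.66 for both).

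Many of the mmu probes share an exon with other probes of the array, which gives a second reading of the same RNA sequence. At least 20 bases were shared with an mclstr probe by 760 mmu probes (17.7%), and by all but 9 of these on 1 side of the junction, not across it. With a CIRCpedia probe 1743 (40.6%) shared such a stretch, and 1741 (40.5%) shared none with any probe. Over 408 pairs in which both were tested and an mclstr probe shared bases of the 5′ part, the levels correlated across pairs with r = 0.836 and the DSS minus Control differences with r = 0.478. For 264 pairs that shared bases of the 3′ part, r was 0.674 and 0.517. For 176 pairs of the same junction, r was 0.846 and 0.712. The points share arrays and bases, and these values are descriptions. The mmu probe was the brighter in 73 of the 408 pairs on the 5′ side, and the median of mmu minus mclstr level was -0.44 on the log2 scale.

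Several of the called probes had such a partner, and some partners moved with them. The mclstr probe that shares 34 bases of the 5′ part of mmu_circ_0012682 differed by -1.22 between DSS and Control (unadjusted p = 0.000627 by limma), beside -1.34 for the mmu probe. The mclstr probe that shares 25 bases of the 3′ part of mmu_circ_0011747 differed by 2.09 and the CIRCpedia probe that shares its 5′ part by 1.55, beside 1.65. Both CIRCpedia probes with the 5′ part of mmu_circ_0004698 differed by -1.83 and -2.01 between DSS+PAMK and DSS, beside -1.97. The mclstr probe with 21 bases of the 3′ part of mmu_circ_0012906 differed by -1.18 in that comparison, beside -1.19. The mclstr probe with all 45 bases of the 5′ part of mmu_circ_0014687 differed by 0.83 between DSS and Control (unadjusted p = 0.00783 by limma), beside 1.29. In these cases the difference was seen in probes that share only 1 side of the junction of the mmu probe.

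Other partners differed by less than 2-fold, in either direction. For mmu_circ_0015222, the DSS+PAMK minus DSS differences of the 5 tested partners were -0.75, -0.41, -0.33, -0.30 and 0.46. The unadjusted p by limma was under 0.05 for 1 of them. For mmu_circ_0013305 the 3 tested partners differed by 0.36, 0.33 and -0.15 between DSS and Control. The CIRCpedia probe with 47 bases of mmu_circ_0008918 differed by -0.12 between DSS and Control. In DSS+PAMK vs DSS it differed by 0.47 (unadjusted p = 0.0487 by limma). These 3 mmu probes lay at or near background in a group, so that the gap to their partners has no measured size. Over all called mmu probes, 8 of 10 tested partners of those higher in DSS and 11 of 11 of those lower had the same sign as the mmu probe in DSS vs Control. Over all pairs of the 5 kinds with over 9 pairs the share of the same sign was 68.6% to 79.0% in that comparison. Those pairs hold no mmu partners, whereas 2 of the 10 and 2 of the 11 are mmu probes. They are also not limited to called probes, so the counts here and below are a description. In DSS+PAMK vs DSS the counts were 4 of 5 and 8 of 10, beside 71.2% to 76.3%, and in DSS+PAMK vs Control 13 of 15 and 3 of 6, beside 63.7% to 76.7%.

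Within the class, 1234 mmu probes (28.7%) shared at least 20 bases of the 5′ or the 3′ part with at least 1 other and formed 487 families, the largest of 11 probes. Levels within a family ranged over a median of 1.12 on the log2 scale in the 359 families with every probe tested. A called probe was found in 12 families, and 0 families held over 1.

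Probes with consecutive identifiers resembled each other even outside these families. Shared stretches under 20 bases were not searched for, and the shortest 3′ parts have 15 bases. Leaving out probes of the same family, 739 pairs of tested probes had identifiers that follow one another. Across these pairs r was 0.277 for the level, 0.246 for the DSS minus Control difference and 0.277 for the DSS+PAMK minus DSS difference. At a gap of 6 to 10 in the identifier (4028 pairs) the values were 0.0284, 0.00704 and 0.0259. Both probes were called in the same direction in 3 of the 739 pairs for DSS vs Control, mmu_circ_0008940 with mmu_circ_0008941, mmu_circ_0011747 with mmu_circ_0011748, and mmu_circ_0012681 with mmu_circ_0012682. They were called in opposite directions in 0. Whether neighbours in the list come from 1 gene is not analysed here.

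A gene could be linked only where a probe shared at least 20 bases with the sequence around an annotated gene start (RefSeq, GRCm38.p6), which held for 41 mmu probes, 35 of them with 1 symbol each and 27 symbols in all. Of these 35, 29 were tested and 0 were called in any comparison. Among all 3608 tested mmu probes 59 were called in any comparison, so 0 of 29 says little. Both probes at Mapk8 (chr14:33410975-33411274, minus strand), which encodes the stress-activated kinase JNK1, were detected on all 9 arrays. Their DSS minus Control differences were -0.69 ± 0.353 for mmu_circ_0005210 and 0.21 ± 0.177 for mmu_circ_0005211, neither of which was called. Both probes at Ncor1 (chr11:62438466-62438765, minus strand), a corepressor of nuclear receptors, had mean levels of 9.49 and 9.51 and differences of -0.25 and -0.21. The 3 probes at Ctbp2 (chr7:133081811-133082110, minus strand), a transcriptional corepressor, had mean levels of 7.88, 4.44 and 8.63 and differences of 0.07, -0.22 and 0.03. Of the 2 probes at Ndst3 (chr3:123672428-123672727, minus strand), an enzyme that modifies heparan sulfate, mmu_circ_0010428 was detected on 7 arrays and differed by 0.72 ± 0.391 (adjusted p = 0.465), and mmu_circ_0010429 was not tested. Of the 8 tested probes at these genes, mmu_circ_0003216 at Ncor1 had DSS values below all Control values, and the Control and DSS values of the other 7 overlapped. Over all tested probes these groups did not overlap for 18.7%, so a single such probe is a description. These genes were singled out after their values were seen, as protein-coding genes with several probes. Of the genes listed for well-studied hosts of circular RNAs, smooth muscle, epithelium, immune cells and enteric neurons, 0 were among the 27 symbols, so these lists could not be read.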

How the data were processed

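Colonic RNA of 9 samples, 3 per group, was labelled and hybridised to 1-colour Agilent arrays, which the authors scanned and read with Agilent Feature Extraction 10.7.1.1. The deposited values used were the processed signal intensity of each spot, which the software had corrected for background, with its marks for detection. Fold changes and p-values of the authors' own comparisons, in their supplementary sheets, were not used. Whole-number depth does not apply, and the number of arrays limits the precision. The labels tie each array to a sample of a group and say no more on how replicates were taken, so p-values measure the spread between these samples, which may be technical.

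Processed intensities were put on the log2 scale and quantile normalized over the 9 arrays, following the study's methods, and control spots were left out. Probes well above background on all arrays of at least 1 group (99616) were fitted together with limma 3.58.1 in R 4.3.3 (data.table, version 1.17.8, and statmod 1.5.0), with adjustment by Benjamini-Hochberg over all of them. A call needed a fold change of 2 and an unadjusted p of 0.05. The fit was tested on simulated data. Sequences were compared in Python 3.11.15 with pandas 2.3.3 and numpy 2.4.6, counting shared runs of at least 20 bases, and RefSeq gene start windows (GRCm38.p6) were used for gene names. The probe names were read as circBase-style identifiers from their form.

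The named probes were the 10 of largest difference in each direction among those called without overlap (5 for DSS+PAMK vs Control), those called in opposite directions, the 10 brightest, and up to 3 bounds per comparison and direction. The members and lists were chosen with earlier results of these data known. Alternatives were the 75th percentile shift, normexp with an offset of 50, no filter or detection on all 9 arrays, the methods' t-test, fits of the compared groups alone, a block for the replicate number, a fixed or a random block for the slide, within-slide differences, and leaving out each array.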

Additional observations from a re-analysis of the deposited data

How the results depend on the processing

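The counts of called mmu probes, given as higher and lower, moved with most settings, and the cause was not tested. For DSS vs Control (16 and 16) they were 6 and 52 with the 75th percentile shift, 2 and 2 with normexp, 34 and 25 with no filter, 9 and 4 with detection on all 9 arrays, 12 and 5 with the methods' t-test, and 26 and 152 with slide as a fixed block and within slide. For DSS+PAMK vs DSS (7 and 10) they were 6 and 17, 2 and 1, 23 and 24, 3 and 5, 3 and 4, and 14 and 16 in the same order. For DSS+PAMK vs Control (18 and 6) they were 4 and 63, 1 and 2, and 32 and 17 under the first 3 settings. They were 13 and 3 with detection on all 9 arrays, 9 and 6 with the t-test, and 48 and 176 with slide as a fixed block. Within slide no value could be had. Leaving out each array gave 12 to 35 and 10 to 34, 6 to 19 and 8 to 16, and 7 to 48 and 5 to 25. Deviations of same-numbered arrays from their group means correlated at -0.20 to 0.09, and those of differently numbered arrays at -0.18 to 0.21. With 3 arrays per group these values cannot decide whether the replicate numbers pair the arrays. The replicate block gave 16 and 13, 7 and 11, and 17 and 10. After Benjamini-Hochberg adjustment normexp gave 11 and 16 in DSS vs Control, detection on all 9 arrays 3 and 1, and slide as a fixed block 0 and 8. The shares detected were 97.0%, 95.2% and 95% in Control, DSS and DSS+PAMK with the software's weaker mark of a positive and significant signal, and 86.2% to 88.0%, 82.2% to 86.0% and 80.4% to 84.1% with an array left out. The median levels were -0.54, -0.64 and -0.59 with the 75th percentile shift, 7.04, 7.02 and 7.06 with normexp, and 6.16 to 6.18, 6.08 to 6.20 and 6.18 to 6.24 with an array left out. Of 48 called differences of named probes, 17 held without each array in turn and 6 under every alternative that gave a value. With slide as a fixed block, the DSS+PAMK minus Control differences of mmu_circ_0009066 and mmu_circ_0011857 turned from -1.35 to 0.59 and from -1.13 to 0.10. Signal over background limits the dim probes, whose spread within groups was the widest.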
